A study of Mus musculus with 60 samples.

Results

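The 28 genes described here encode enzymes of cholesterol synthesis and the proteins that set its rate through sterol regulatory element-binding protein 2 (SREBP2). They were chosen by name for their place in the pathway, and all 28 were found among the 54232 gene IDs of the deposited count table. They were measured by RNA sequencing in 60 libraries from 3 mouse tissues, namely liver, subcutaneous fat and visceral fat. Each tissue has 4 groups of 5 libraries, with 5 mice in a group. Mice of the first group ate a Western diet and expressed NaKtide, a peptide that blocks Src signalling through the sodium pump. The second ate the Western diet without NaKtide, the third ate the control diet and expressed NaKtide, and the fourth ate the control diet alone. Fat made up 42% of the Western diet and 11% of the control chow, protein 15.2% of the Western diet and 27.0% of the chow, and carbohydrate 42.7% of the Western diet and 62% of the chow. Feeding lasted 12 weeks. NaKtide came from a transgene induced by doxycycline at 300 mg per kg of diet. The labels do not give strain, sex, age or the promoter of the transgene, and they do not say whether mice without NaKtide also ate doxycycline. The transgene has no row in the table, so its expression was not checked. The labels do not say whether 1 mouse gave all 3 tissues, so p-values measure the spread between these libraries.

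Cholesterol is built from acetyl-CoA. The first enzymes make mevalonate and turn it into isoprenoid units, the next join these units into farnesyl diphosphate and squalene, and the last close squalene into a ring and trim it to cholesterol. SREBP2 is a membrane-bound transcription factor that raises transcription of these genes when sterols are scarce. SCAP carries SREBP2 from the endoplasmic reticulum to the Golgi, where the site-1 and site-2 proteases (Mbtps1 and Mbtps2) release its active part, and the sterol-sensing INSIG proteins hold SCAP back when sterols are abundant. The liver is a main site of cholesterol synthesis and secretes it in lipoproteins and bile, while fat tissue stores much cholesterol and is known for a lower rate of synthesis.

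By role the genes were 6 of the mevalonate stage (Acat2, Hmgcs1, Mvk, Pmvk, Mvd and Idi1), 4 of the prenyl and squalene stage (Ggps1, Fdps, Fdft1 and Sqle), 10 of the sterol stage (Lss, Cyp51, Tm7sf2, Msmo1, Nsdhl, Hsd17b7, Ebp, Sc5d, Dhcr7 and Lbr), 6 of SREBP2 control (Insig1, Insig2, Srebf2, Scap, Mbtps1 and Mbtps2), and a pair that handle sterol transfer and receptor breakdown (Stard4 and Mylip). Promoters were available for 24 of the 28 in the RefSeq table of GRCm38.p6, as windows of 300 bases ending just past the gene start. The sterol regulatory element was searched as the letters TCACNCCAC and, on the other strand, GTGGNGTGA. It stood in 1 of 24 genes (4.17%), Hmgcs1, against 1.44% of all 27025 genes with a promoter in the table. Without its last letter (TCACNCCA or TGGNGTGA) it stood in 3 of 24 genes (12.5%), against 4.97% of all genes, and without its first letter (CACNCCAC or GTGGNGTG) in 3 of 24 (12.5%), against 7.12%. These shortened forms were added after the full form had been counted, and they overlap it. CCAAT or ATTGG, the letters of the NF-Y box that often accompanies SREBP, stood in 20 of 24 genes (83.3%), against 41.1% of all genes. GGGCGG or CCGCCC, the GC box, stood in 21 of 24 (87.5%), against 38.2%. The 3 promoters below are shown because they belong to the enzyme that makes HMG-CoA, to the sterol-sensing gene called in every tissue, and to SREBP2 itself. Capitals mark the full or shortened sterol element.
Hmgcs1: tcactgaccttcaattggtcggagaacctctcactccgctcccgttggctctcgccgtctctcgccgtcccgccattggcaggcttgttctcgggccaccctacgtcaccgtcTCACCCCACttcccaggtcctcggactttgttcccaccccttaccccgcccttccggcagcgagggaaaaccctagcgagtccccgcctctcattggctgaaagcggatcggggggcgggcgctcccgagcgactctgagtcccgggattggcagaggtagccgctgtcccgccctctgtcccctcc
Insig1: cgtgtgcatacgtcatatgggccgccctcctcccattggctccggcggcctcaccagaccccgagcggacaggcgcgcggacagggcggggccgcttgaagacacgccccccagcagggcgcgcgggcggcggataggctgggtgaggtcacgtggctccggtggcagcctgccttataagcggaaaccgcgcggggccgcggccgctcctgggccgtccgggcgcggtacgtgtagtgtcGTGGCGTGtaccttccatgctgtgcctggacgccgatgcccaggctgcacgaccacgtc
Srebf2: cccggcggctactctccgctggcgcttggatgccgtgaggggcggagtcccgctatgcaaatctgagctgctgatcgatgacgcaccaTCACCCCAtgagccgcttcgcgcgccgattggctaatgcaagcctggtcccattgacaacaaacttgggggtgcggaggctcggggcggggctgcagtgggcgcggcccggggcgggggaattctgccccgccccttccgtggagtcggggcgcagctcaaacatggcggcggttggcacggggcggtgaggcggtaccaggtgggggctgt
The Hmgcs1 window is chr13:119690101-119690400 on the plus strand, with the match 137 bases before the start, TCACCCCAC, and 4 CCAAT and 3 GC boxes. The Insig1 window is chr5:28071162-28071461 on the plus strand, with a shortened match, GTGGCGTG on the strand shown, 9 bases before the start, and 1 CCAAT and 3 GC boxes. The Srebf2 window is chr15:82147019-82147318 on the plus strand, with the shortened match TCACCCCA 162 bases before the start, and 1 CCAAT and 5 GC boxes. A match of letters is a description and not a binding site.

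Levels between genes were compared per length, as the deposited FPKM values, in which fragment counts are divided by gene length and library depth, in the control diet groups. Values of 1 gene are also given across tissues, without a test. Both fat control diet groups include libraries with transcripts of other tissues, as described below, and these add to the values. Ebp, the sterol isomerase, led in liver with 218 ± 28.2 FPKM, against 16.6 ± 2.79 in subcutaneous and 24.3 ± 10.7 in visceral fat (SD, n = 5 each, as throughout). Acat2, which joins acetyl-CoA into acetoacetyl-CoA, had 150 ± 9.17 FPKM in liver, 42.7 ± 9.61 in subcutaneous fat and 61.9 ± 31.7 in visceral fat. It has a near-identical relative, Acat3, so its reads may be split between the copies and its values are uncertain. Sc5d, a late desaturase, had 73.9 ± 23.6 FPKM in liver, 19.4 ± 3.05 in subcutaneous fat and 12.4 ± 5.38 in visceral fat. Insig1 had 72.6 ± 20.1 FPKM in liver, 41.1 ± 24.7 in subcutaneous fat and 22.4 ± 14.8 in visceral fat, and the liver and subcutaneous spreads overlapped. Its relative Insig2 had 49.8 ± 11.0 FPKM in liver, 8.47 ± 0.990 in subcutaneous fat and 7.98 ± 2.33 in visceral fat, with overlapping spreads in the fat depots. Stard4, which moves free cholesterol between membranes, had 12.6 ± 3.67 FPKM in liver, 1.54 ± 0.193 in subcutaneous fat and 1.97 ± 0.529 in visceral fat. Mylip, the ubiquitin ligase that marks lipoprotein receptors for breakdown, ran the other way, with 0.759 ± 0.390 FPKM in liver, 13.8 ± 4.45 in subcutaneous fat and 12.5 ± 8.62 in visceral fat. Mbtps2 had the lowest FPKM of the 28 in each tissue, at 0.297 ± 0.129 in liver, 0.402 ± 0.0495 in subcutaneous fat and 0.402 ± 0.0891 in visceral fat.

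Changes between groups are given as CPM, the count relative to the library's total, after TMM scaling within a tissue, which compare 1 gene across libraries, and as log2 fold changes with standard errors (SE) from edgeR's quasi-likelihood test. A gene is called where its p, adjusted by the Benjamini-Hochberg method over all genes tested in that tissue, is under 0.05. Library depth was 3177783 to 9784337 counts. All 28 genes were tested in each tissue, among 12991 genes in liver, 15226 in subcutaneous fat and 17235 in visceral fat. The liver label was borne out by 8 hepatocyte markers, all detected in liver and summing there to 31564 to 52056 CPM. The fat labels were checked with 8 adipocyte markers. In visceral fat these summed to 1106 CPM in control diet replicate 5 and to 9642 CPM in control diet replicate 4. They summed to 11539 to 32320 CPM in the other 18 libraries. The visceral label of control diet replicate 5 is thus not well borne out by these markers. It was kept in the fits of all 20 visceral libraries. 3 sets of libraries stand apart. In 8 visceral libraries (control diet 3, 4 and 5, control diet + NaKtide 1, Western diet 1, and Western diet + NaKtide 2, 3 and 5) 11 epididymis and 8 testis markers summed to over 1000 CPM, with an epididymis sum up to 34395 CPM. Subcutaneous control diet + NaKtide libraries held 117 to 268860 CPM of 15 skeletal muscle markers, with the highest sum of any library in replicate 2, subcutaneous control diet libraries 8290.5 to 62615 CPM, and liver control diet libraries 2 and 4 held muscle markers too, up to 768 CPM.

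In liver, NaKtide on the Western diet went with lower levels of the pathway. Of the 28 genes, 12 fell and 0 rose, where 4.79% of all genes tested were called in either direction, 2.24% higher and 2.55% lower. The 12 were 3 mevalonate-stage genes, both Fdps and Sqle of the squalene stage, 5 sterol-stage genes, and Insig2 and Scap. The 28 had a median log2 fold change of -0.71, against -0.02 for all genes tested, and 26 of the 28 values were below 0. The summed level of the 20 enzymes was 1273 ± 123 CPM in Western diet + NaKtide livers and 1859 ± 325 CPM in Western diet livers. The ranges, 1129 to 1464 and 1470 to 2298 CPM, did not overlap.

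**Figure D1:**
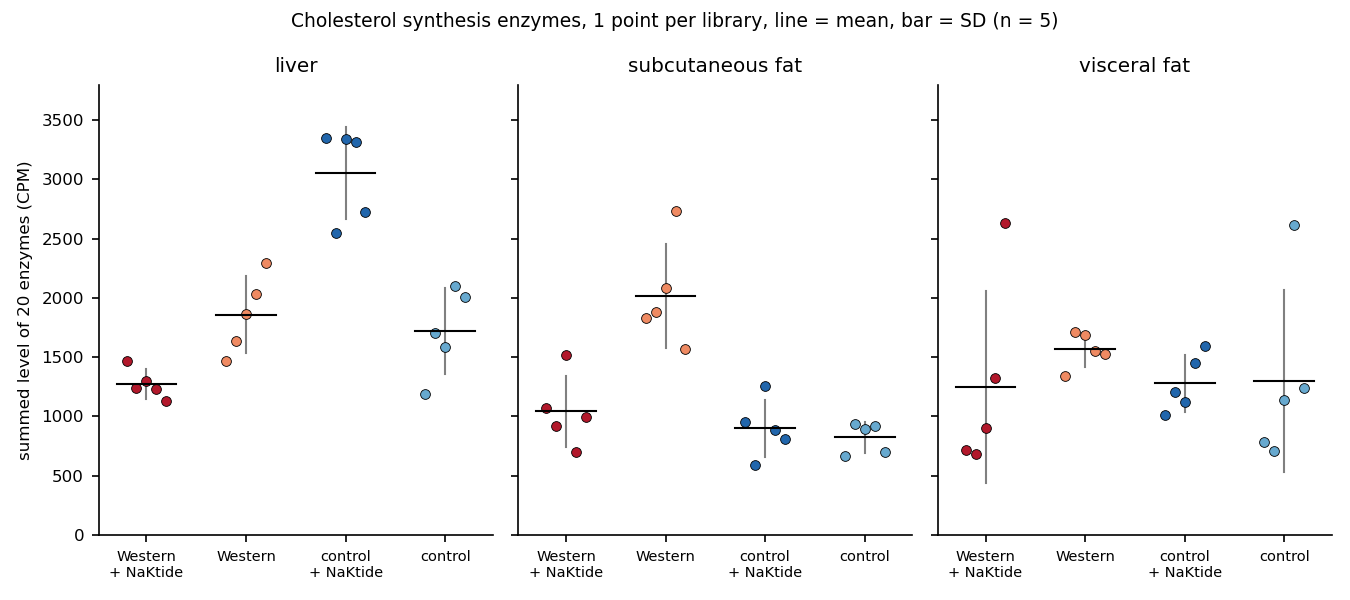
Summed level of the 20 cholesterol synthesis enzymes (CPM, vertical axis from 0) in each library of liver, subcutaneous fat and visceral fat, with groups along the horizontal axis in the order Western diet + NaKtide, Western diet, control diet + NaKtide and control diet; lines are means and bars SD (n = 5). In liver control diet + NaKtide libraries are highest (3054 ± 389 CPM) and Western diet + NaKtide lowest (1273 ± 123), in subcutaneous fat the Western diet group stands above the rest (2019 ± 438), and in visceral fat 1 Western diet + NaKtide and 1 control diet library lie far above their groups.

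Sqle, squalene epoxidase, an oxygen-requiring and rate-limiting step, had 1.78, 1.56, 1.34, 2.97 and 2.92 CPM in Western diet + NaKtide livers, against 4.93, 4.94, 11.7, 60.2 and 14.0 CPM in Western diet livers. Every NaKtide value lay below every other, and the Western diet group was wide because of replicate 4. Sqle fell by 3.21 ± 0.63 on the log2 scale (9.25-fold, adjusted p 0.0054). These values rest on 47 counts in the 5 Western diet + NaKtide livers together and 552 in the 5 Western diet livers. Insig2 had 111, 103, 105, 115 and 144 CPM in Western diet + NaKtide livers, against 267, 277, 298, 241 and 203 CPM in Western diet livers. The groups did not overlap, and Insig2 fell by 1.16 ± 0.17 (2.23-fold, adjusted p 0.00086). Scap, the SREBP escort, had 51.3, 48.8, 48.9, 50.2 and 41.7 CPM in Western diet + NaKtide livers, against 60.5, 73.0, 98.9, 92.7 and 93.2 CPM in Western diet livers. These groups were apart as well, and Scap fell by 0.79 ± 0.13 (1.73-fold, adjusted p 0.0020).

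Mvd, which makes isopentenyl diphosphate, fell by 1.70 ± 0.27 (3.25-fold, adjusted p 0.0012). Cyp51, which removes the methyl group at carbon 14 of lanosterol, fell by 1.41 ± 0.26 (2.66-fold, adjusted p 0.0035). Tm7sf2, a sterol reductase, fell by 1.46 ± 0.30 (2.75-fold, adjusted p 0.0079). The other 6 that fell were Pmvk, Idi1, Fdps, Lss, Nsdhl and Dhcr7, with log2 changes between -1.48 and -0.71. For 10 of the 28 genes the groups did not overlap, all 10 lower and all 10 called, where 2.41% of all genes tested were lower without overlap. Insig1 averaged 168 ± 23.5 CPM in Western diet + NaKtide livers and 243 ± 53.2 CPM in Western diet livers, and did not pass the test (adjusted p 0.095). Srebf2, which encodes SREBP2, averaged 33.6 ± 4.19 and 36.1 ± 2.27 CPM in the same order of groups and did not pass it either (adjusted p 0.66).

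Other measures moved with these groups. The mitochondrial mRNA share was 7.06% to 16.9% in Western diet + NaKtide livers and 5.64% to 11.6% in Western diet livers. All 10 macrophage markers were detected in both, summing to 251 to 332 CPM in Western diet + NaKtide livers and 115 to 210 CPM in Western diet livers. All 5 cholangiocyte markers were detected, at a median sum of 78.5 CPM in Western diet + NaKtide livers and 35.6 CPM in Western diet livers. The sum of 14 clock genes was 424 to 507 CPM in Western diet + NaKtide livers and 292 to 351 CPM in Western diet livers. Hepatocyte markers, at 31564 to 40765 and 32721 to 40343 CPM in that order of groups, overlapped. With the mitochondrial share as a covariate 4 of the 12 were still called, namely Mvd (-1.43), Cyp51 (-1.30), Insig2 (-1.29) and Scap (-0.65). The share of all genes called in that fit is not given here, so whether the loss is particular to the pathway is not shown. The part of the other measures in the result was not tested, and in bulk tissue fewer cells of a type and less RNA per cell cannot be told apart.

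On the control diet NaKtide went with higher levels of the pathway in liver. Of the 28 genes, 13 rose and 0 fell, where 1.55% of all genes tested were called, 1.14% higher and 0.408% lower. They were 4 mevalonate-stage genes, Fdps and Fdft1, 5 sterol-stage genes, Insig1 and Stard4. The median log2 fold change was 0.90, against 0.01 for all genes, and 24 of the 28 values were above 0. The summed enzymes reached 3054 ± 389 CPM in control diet + NaKtide livers, against 1718 ± 363 CPM in control diet livers, and the ranges, 2547 to 3348 and 1193 to 2102 CPM, did not overlap.

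Lss, lanosterol synthase, had 68.8, 73.3, 67.1, 78.4 and 71.4 CPM in control diet + NaKtide livers, against 21.1, 36.0, 24.0, 40.9 and 32.1 CPM in control diet livers. The NaKtide values were close together and all above the control diet values, and Lss rose by 1.21 ± 0.18 (2.32-fold, adjusted p 0.0022). Insig1 had 286, 293, 308, 410 and 333 CPM in control diet + NaKtide livers, against 96.2, 183, 120, 195 and 158 CPM in control diet livers. The groups did not overlap, and Insig1 rose by 1.11 ± 0.19 (2.16-fold, adjusted p 0.0051). Insig2 did not follow it, with 106 ± 21.3 CPM in control diet + NaKtide livers and 116 ± 26.0 CPM in control diet livers (adjusted p 0.69).

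Hsd17b7, a sterol ketoreductase, rose by 1.45 ± 0.25 (2.73-fold, adjusted p 0.0051). Sc5d rose by 1.24 ± 0.21 (2.36-fold, adjusted p 0.0051), Mvd by 1.28 ± 0.25 (2.42-fold, adjusted p 0.012) and Fdft1, squalene synthase, by 1.14 ± 0.22 (2.2-fold, adjusted p 0.012). Fdft1 shares exon bases with Ctsb on the opposite strand, so its values need care in every comparison, as described below for visceral fat. Stard4 averaged 76.5 ± 10.5 CPM in control diet + NaKtide livers and 47.1 ± 13.9 CPM in control diet livers, and rose by 0.70 ± 0.17 (1.62-fold, adjusted p 0.046). The remaining 6, Hmgcs1, Pmvk, Idi1, Fdps, Nsdhl and Dhcr7, rose by 0.87 to 1.54 on the log2 scale. For 15 genes the groups did not overlap, all higher, and 12 of these were called, where 2.52% of all genes tested were higher without overlap. In control diet replicate 1, 17 of the 20 enzymes were at their lowest for that group. Without control diet + NaKtide replicate 4 the count of called genes was 7, and without control diet libraries 2 and 4, which hold muscle transcripts, it was 8. Neither count is set against all genes called in the same fit. The mitochondrial share was 5.33% to 6.87% in control diet + NaKtide livers and 4.86% to 7.18% in control diet livers. Hepatocyte markers summed to 32909 to 46278 CPM in control diet + NaKtide livers and 42387 to 52056 CPM in control diet livers, and clock genes to 394 to 670 and 309 to 408 CPM in that order, and the part of either was not tested.

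**Figure D2:**
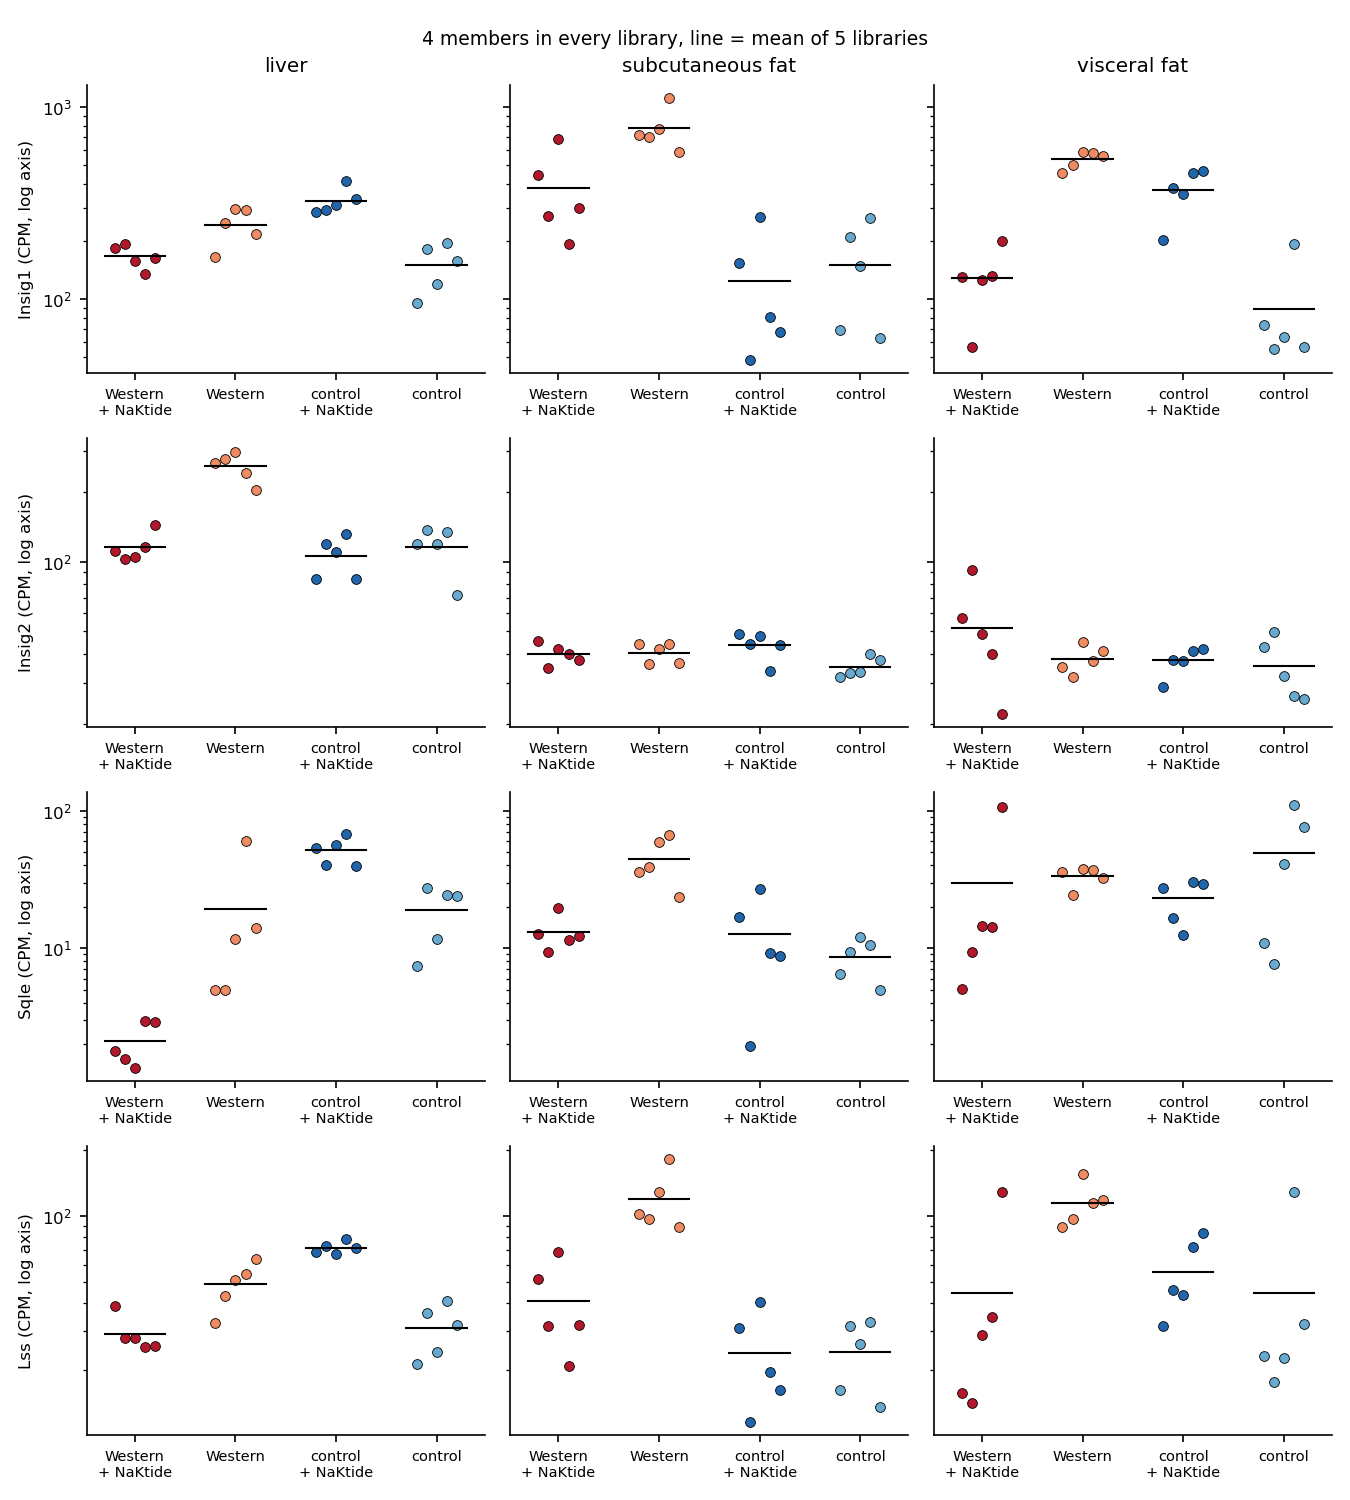
Levels of Insig1, Insig2, Sqle and Lss (rows, CPM on a log axis) in each library of the 3 tissues (columns), with groups in the order Western diet + NaKtide, Western diet, control diet + NaKtide and control diet and lines at the means of 5 libraries. Insig2 in liver is high in the Western diet group alone (257 ± 36.5 CPM) and lower in both fats, while Insig1 is high in the Western diet groups of both fats (778 ± 204 CPM subcutaneous, 535 ± 57.2 CPM visceral). In visceral fat Insig1 is also high in the control diet + NaKtide group.

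The diets were then compared among mice with NaKtide. In liver 21 of the 28 genes fell in Western diet + NaKtide relative to control diet + NaKtide and 0 rose, where 24.5% of all genes tested were called, 12.9% higher and 11.7% lower. The median was -1.19, against -0.02 for all genes. All 6 mevalonate-stage genes fell, with 3 of 4 at the prenyl and squalene stage, 8 of 10 at the sterol stage, 3 of 6 control genes, and Stard4. Groups did not overlap for 20 of the 28 genes, all lower and all called, where 6.21% of all genes tested were lower without overlap.

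Idi1, isopentenyl diphosphate isomerase, had 12.4, 16.2, 16.1, 16.1 and 14.9 CPM in Western diet + NaKtide livers, against 177, 128, 202, 166 and 102 CPM in control diet + NaKtide livers. Every Western value was a small fraction of every control diet value, and Idi1 fell by 3.36 ± 0.35 (10.3-fold, adjusted p 1.3e-05). Cyp51 had 29.9, 31.8, 27.1, 21.1 and 25.8 CPM in Western diet + NaKtide livers, against 193, 121, 206, 164 and 119 CPM in control diet + NaKtide livers. It fell by 2.56 ± 0.26 (5.88-fold, adjusted p 1.3e-05). Mvd fell by 2.33 ± 0.27 (5.04-fold, adjusted p 1.7e-05), Fdft1 by 1.89 ± 0.23 (3.71-fold, adjusted p 2.2e-05), Msmo1, a sterol methyl oxidase, by 2.68 ± 0.35 (6.41-fold, adjusted p 4.8e-05) and Tm7sf2 by 2.29 ± 0.31 (4.89-fold, adjusted p 6.8e-05). Sqle averaged 2.12 ± 0.774 CPM in Western diet + NaKtide livers and 51.6 ± 12.0 CPM in control diet + NaKtide livers.

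Among control genes Scap fell by 0.88 ± 0.13 (adjusted p 0.00024), Insig1 by 0.96 ± 0.19 (adjusted p 0.0017) and Srebf2 by 0.55 ± 0.13 (adjusted p 0.0067). Stard4 fell by 1.09 ± 0.18 (adjusted p 0.00034). Insig2 averaged 116 ± 16.5 CPM in Western diet + NaKtide livers and 106 ± 21.3 CPM in control diet + NaKtide livers, and Mbtps1 39.5 ± 4.49 and 46.9 ± 6.56 CPM in that order, and neither passed the test. The mitochondrial share of these groups, 7.06% to 16.9% and 5.33% to 6.87% in that order, did not overlap, nor did the macrophage sum, 251 to 332 and 80.4 to 172 CPM, or the cholangiocyte sum, 65.0 to 276 and 10.2 to 26.1 CPM. Their part in the result was not tested. With the mitochondrial share as a covariate 17 genes were called, a count that is not set against all genes here.

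**Figure D3:**
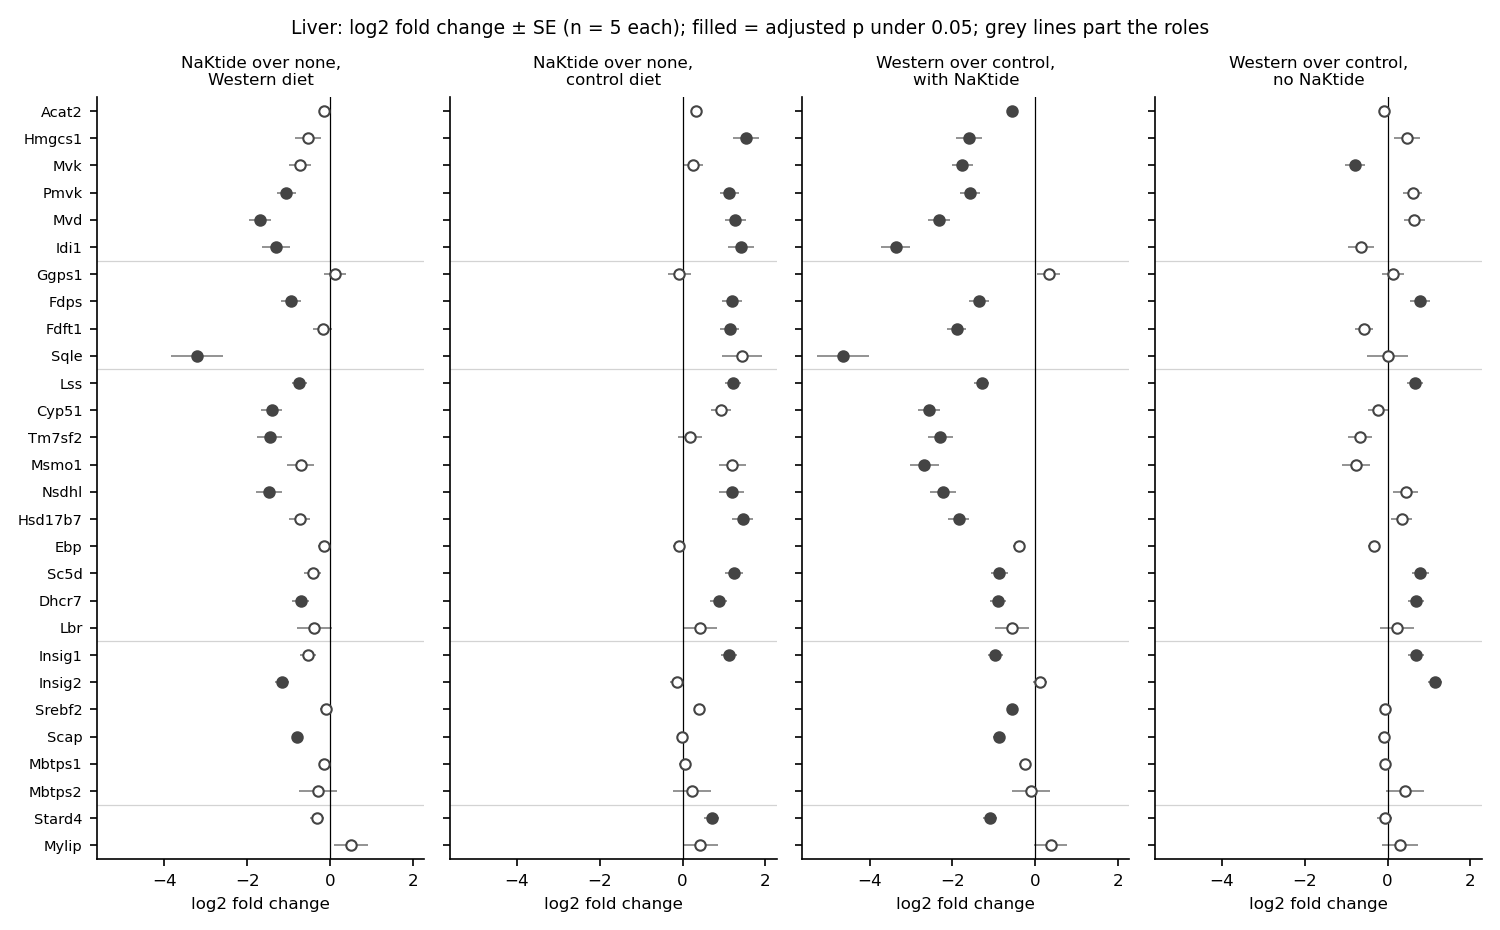
Log2 fold changes with SE (horizontal axis) of the 28 genes (vertical axis, grouped by role between grey lines) in 4 liver comparisons; filled points have an adjusted p under 0.05. With NaKtide 12 genes were lower on the Western diet and 13 higher on the control diet, and the diet difference had 21 lower genes with NaKtide and 6 higher and 1 lower without it.

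Without NaKtide, in liver, 6 of the 28 genes rose in Western diet relative to control diet and 1 fell, where 8.44% of all genes tested were called, 4.75% higher and 3.69% lower, and the median was 0.18, against 0.03 for all genes. Insig2 had 267, 277, 298, 241 and 203 CPM in Western diet livers, against 119, 136, 119, 134 and 71.9 CPM in control diet livers. The groups were apart, and Insig2 rose by 1.15 ± 0.17 (2.22-fold, adjusted p 0.00023). Sc5d rose by 0.79 ± 0.21 (1.73-fold, adjusted p 0.019), Insig1 by 0.69 ± 0.19 (1.61-fold, adjusted p 0.025), Lss by 0.66 ± 0.18 (1.58-fold, adjusted p 0.028) and Dhcr7, the last reductase of the pathway, by 0.68 ± 0.20 (1.61-fold, adjusted p 0.039). Mvk, mevalonate kinase, fell by 0.78 ± 0.24 (1.72-fold, adjusted p 0.046), and Fdps rose as well. Of these 7 calls Insig2 was the only one kept whichever library was left out, and the count ranged from 2 (without Western diet replicate 3) to 6. It was 4 without control diet 1 or 2 or Western diet 4 or 5, and 3 without control diet 3. Hepatocyte markers, at 32721 to 40343 CPM in Western diet livers and 42387 to 52056 CPM in control diet livers, did not overlap, nor did cholangiocyte markers, at 27.7 to 104 CPM in Western diet livers and 12.1 to 26.2 CPM in control diet livers. Macrophage markers had medians of 166 and 105 CPM in that order, and the part of these measures was not tested. Without the pair of muscle-containing control diet livers 5 genes were called, again without the share of all genes in that fit.

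The difference of the 2 NaKtide effects in liver, tested as a diet by NaKtide interaction, was called for 19 of the 28 genes, all with a lower effect on the Western diet, where 5.00% of all genes tested were called, 2.07% higher and 2.93% lower. The median was -1.60, against -0.04 for all genes. Mvd had the smallest p, at -2.98 ± 0.37 (adjusted p 0.00033), followed by Lss at -1.96 ± 0.26 (adjusted p 0.00040), Pmvk, phosphomevalonate kinase, at -2.18 ± 0.33 (adjusted p 0.0010), Cyp51 at -2.33 ± 0.36 (adjusted p 0.0011), and Nsdhl, a sterol dehydrogenase, at -2.66 ± 0.43 and Fdps, farnesyl diphosphate synthase, at -2.12 ± 0.34 (adjusted p 0.0016 each). Among genes of SREBP2 control it was called for Insig1 (-1.65 ± 0.27, adjusted p 0.0016), Insig2 (-1.02 ± 0.24, adjusted p 0.025) and Scap (-0.78 ± 0.19, adjusted p 0.026). It was also called for the sterol carrier Stard4 (-1.02 ± 0.25, adjusted p 0.027). For Insig1 and Insig2 the values behind it differ in kind. Insig1 was highest in control diet + NaKtide livers, at 326 ± 50.6 CPM, while Insig2 was highest in Western diet livers, at 257 ± 36.5 CPM, with the other 3 groups between 106 and 116 CPM on average. The called count stayed at 14 to 22 whichever library was left out.

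Other sterol genes of the liver, a list of 27 that are not among the 28, were counted in the same fits. With NaKtide on the Western diet 1 of 27 was called by edgeR, 8 by limma with quality weights, which called 30.1% of all genes, and 6 without library 1 of both Western diet groups, where 27.4% of all genes were called. The 1 was Dhdds (-0.54 ± 0.15), a dolichol synthesis enzyme, which fell. On the control diet 1 was called, Srebf1, which encodes the SREBP of fatty acid synthesis, and it rose by 1.14 ± 0.20. Between diets without NaKtide 5 were called. Srebf1 rose by 1.38 ± 0.20, the sterol exporters Abcg5 and Abcg8 rose by 1.14 ± 0.24 and 0.87 ± 0.21, and the receptor Scarb1 fell by 0.88 ± 0.23. Between diets with NaKtide 3 rose and 3 fell, against 13 called by limma, which called 43.2% of all genes, with Abcg5 higher by 1.56 ± 0.24, Abcg1, a cholesterol exporter, by 1.23 ± 0.27 and Abcg8 by 0.89 ± 0.21, and Tmem97, a sterol-responsive membrane protein, lower by 0.81 ± 0.19. In the interaction edgeR called Srebf1 alone, at -1.02 ± 0.28, limma called 6 of the 27 and 3243 of all 12991 genes, and the fit without library 1 of both Western diet groups called 8 and 28.2% of all genes. With the mitochondrial share as a covariate neither Dhdds (-0.34) nor the interaction of Srebf1 (-0.74) passed the test, and without the pair of muscle-containing control diet livers neither Abcg8 (0.78) nor Scarb1 (-0.90) passed it between diets without NaKtide.

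In subcutaneous fat the Western diet went with higher levels of the pathway. Without NaKtide 15 of the 28 genes rose and 0 fell, where 5.61% of all genes tested were called, 2.21% higher and 3.40% lower. They were 5 of 6 at the mevalonate stage, Fdps and Sqle, 6 of 10 at the sterol stage, and Insig1 and Srebf2. The median was 1.12, against -0.02 for all genes, and for 13 genes, all called and higher, the groups did not overlap, where 5.64% of all genes tested were higher without overlap. The enzymes summed to 2019 ± 438 CPM in Western diet fat and 824 ± 128 CPM in control diet fat.

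Insig1 had 713, 702, 771, 1121 and 582 CPM in Western diet fat, against 69.5, 211, 148, 265 and 63.0 CPM in control diet fat. The groups were far apart, and Insig1 rose by 2.36 ± 0.48 (5.14-fold, adjusted p 0.013). Lss had 102, 97.0, 129, 182 and 89.4 CPM in Western diet fat, against 16.2, 31.6, 26.1, 32.8 and 13.5 CPM in control diet fat. It rose by 2.32 ± 0.36 (4.98-fold, adjusted p 0.0090), with no overlap. Sqle had 35.6, 39.1, 58.8, 66.5 and 23.7 CPM in Western diet fat, against 6.53, 9.36, 12.1, 10.5 and 4.93 CPM in control diet fat, and rose by 2.36 ± 0.42 (5.14-fold, adjusted p 0.010).

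Nsdhl rose by 2.35 ± 0.39 (5.1-fold, adjusted p 0.0096), Pmvk by 1.80 ± 0.31 (3.47-fold, adjusted p 0.0099), Hsd17b7 by 2.23 ± 0.40 (4.68-fold, adjusted p 0.011) and Fdps by 1.86 ± 0.34 (3.62-fold, adjusted p 0.011). Srebf2 averaged 70.2 ± 12.3 CPM in Western diet fat and 43.7 ± 7.48 CPM in control diet fat, and rose by 0.68 ± 0.20 (1.6-fold, adjusted p 0.047). It was called in 1 of the 10 fits that left out a library. Insig2, high in Western diet livers, had 40.5 ± 3.90 CPM in Western diet fat and 35.3 ± 3.53 CPM in control diet fat, and was not called (adjusted p 0.31). Skeletal muscle markers, all 15 detected in both groups, summed to 83.7 to 267 CPM in Western diet fat and 8290.5 to 62615 CPM in control diet fat. Without 5516 genes that were high in the most muscle-rich library, the same number of genes, 15, was called, where 5.24% of the genes kept were called. The genes of the pathway were exempt from this removal, so any muscle RNA in their own counts stayed. The fit could change only the scaling and the adjustment of p, and the part of muscle in the result was not tested. The mitochondrial share was 2.39% to 3.37% in Western diet fat and 4.12% to 11.1% in control diet fat. Adipocyte markers summed to 16457 to 19605 and 18954 to 27172 CPM, and clock genes to 434 to 544 and 473 to 836 CPM, in that order of groups. The part of either in the result was not tested.

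On the Western diet no gene in subcutaneous fat passed edgeR's test for NaKtide, so 0 of the 28 were called and the percent called over all genes was 0.00. The values still lay mostly below 0. Their median was -0.87, against 0.03 for all genes, and 21 of the 28 had an unadjusted p under 0.05, where 12.3% of all genes did. Other tools made calls on the same counts. DESeq2 called 7 of the 28 and 1.27% of all genes, and limma with quality weights called 16 of the 28 and 4.19% of all genes. The enzymes summed to 1042 ± 303 CPM in Western diet + NaKtide fat and 2019 ± 438 CPM in Western diet fat, and groups did not overlap for 6 lower genes, Acat2, Sqle, Lss, Nsdhl, Hsd17b7 and Dhcr7, which are named here after their values were seen. Of all genes tested 2.38% were lower without overlap.

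Lss had 51.6, 31.7, 68.3, 20.9 and 31.9 CPM in Western diet + NaKtide fat, against the Western diet values above, with a log2 change of -1.55 ± 0.35 (adjusted p 0.14). Sqle had 12.7, 9.40, 19.8, 11.5 and 12.3 CPM in Western diet + NaKtide fat and a change of -1.76 ± 0.40 (adjusted p 0.14). Replicate 3 of the group was the highest for 17 of the 20 enzymes and replicate 4 the lowest for 15. Insig1 had 443, 272, 686, 195 and 299 CPM in Western diet + NaKtide fat, where replicate 3 lies within the range of Western diet fat, and a change of -1.04 ± 0.46 (adjusted p 0.37). Mylip ran the other way, with 43.8, 63.1, 44.3, 48.5 and 60.0 CPM in Western diet + NaKtide fat, against 27.6, 42.3, 31.7, 23.0 and 34.0 CPM in Western diet fat. Its groups did not overlap, and the change of 0.71 ± 0.29 did not pass the test (adjusted p 0.32). The sum of muscle markers had medians of 981 CPM in Western diet + NaKtide fat and 101 CPM in Western diet fat, and the clock genes, at 549 to 708 and 434 to 544 CPM in that order, did not overlap. The part of either was not tested.

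On the control diet NaKtide was followed by no call in subcutaneous fat. edgeR called 0 of the 28 genes and 0.00% of all genes, 2 of the 28 had an unadjusted p under 0.05, where 6.03% of all genes did, and the median was 0.02, against 0.05 for all genes. DESeq2 and limma with quality weights called 0 as well. Between diets with NaKtide edgeR called 0 of the 28 and 0.00% of all genes, with 5 of the 28 at an unadjusted p under 0.05, where 24.5% of all genes were. DESeq2 and limma each called 1 of the 28, where they called 7.84% and 3.89% of all genes, and the median was 0.23. Insig1 averaged 379 ± 194 CPM in Western diet + NaKtide fat and 124 ± 89.7 CPM in control diet + NaKtide fat (adjusted p 0.078). The interaction was called for 0 of the 28 and 0.00% of all genes by edgeR, with 14 at an unadjusted p under 0.05, where 11.2% of all genes were, and 2 called by DESeq2, where it called 0.315% of all genes. Limma called 0. Its median was -0.85. Control diet + NaKtide replicate 2, which enters these 3 comparisons, held 268860 CPM of muscle markers and a mitochondrial share of 17.9%. Without it edgeR called 0 of the 28 for NaKtide on the control diet, 0 between diets with NaKtide and 1 in the interaction. The diet difference with NaKtide is therefore not shown to differ from the one without it. None of the 24 tested genes of the other sterol list was called by edgeR in any of these comparisons, and between 1 and 7 of them had an unadjusted p under 0.05, where 6.03% to 24.5% of all genes did. Between diets with NaKtide DESeq2 called 3 of the 24 and limma with quality weights 1, where they called 7.84% and 3.89% of all genes. Between diets without NaKtide they called 2 and 3 of the 24, counts that are not set against all genes here. In the other 3 comparisons both called 0.

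**Figure D4:**
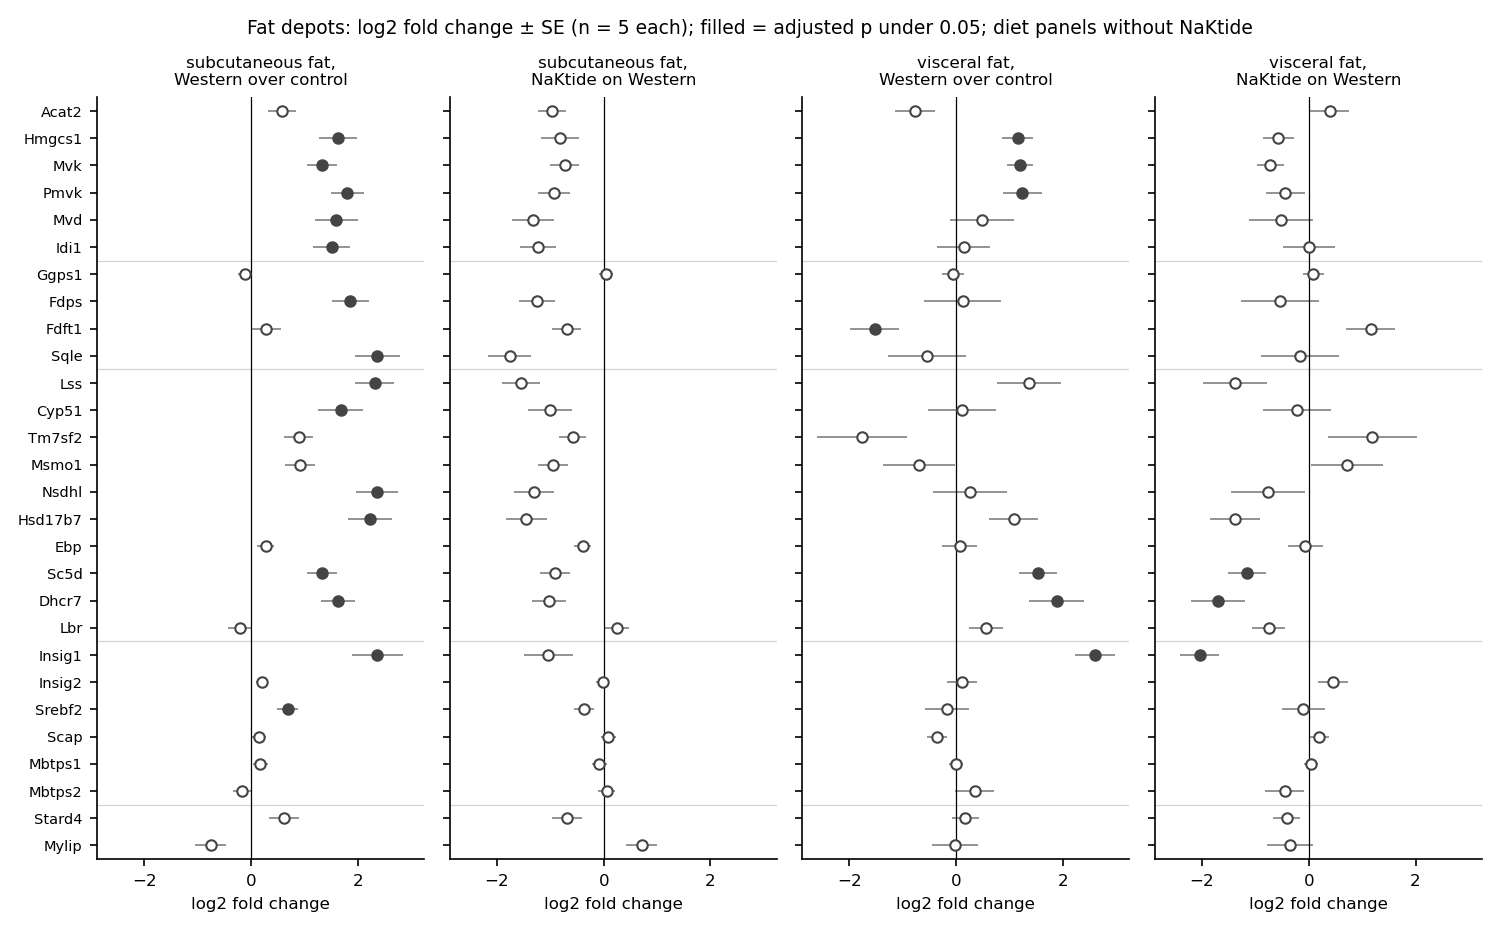
Log2 fold changes with SE (horizontal axis) of the 28 genes (vertical axis, by role) for subcutaneous fat (left pair of panels) and visceral fat (right pair), each for Western diet over control diet without NaKtide and for NaKtide over none on the Western diet; filled points have an adjusted p under 0.05. Insig1 is filled in both diet panels (2.36 and 2.59) and in the visceral NaKtide panel (-2.05).

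In visceral fat Insig1 was called in each of the 5 comparisons. On the Western diet it fell with NaKtide, on the control diet it rose, and without NaKtide it rose with the Western diet. It had 131, 56.3, 126, 132 and 202 CPM in Western diet + NaKtide fat, 452, 500, 585, 580 and 556 CPM in Western diet fat, 204, 382, 351, 456 and 463 CPM in control diet + NaKtide fat, and 73.5, 55.4, 63.5, 194 and 56.7 CPM in control diet fat. Western diet values were all above those of Western diet + NaKtide and control diet fat, and control diet + NaKtide values were all above those of control diet fat.

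Between diets without NaKtide 6 of the 28 genes rose and 1 fell, where 24.9% of all genes tested were called, 10.5% higher and 14.3% lower. The share of the 28 that was called was thus near that of all genes, and their median log2 change was 0.13, against -0.22 for all genes. Insig1 rose by 2.59 ± 0.37 (6.03-fold, adjusted p 0.00031), Mvk by 1.19 ± 0.25 (adjusted p 0.0040), Sc5d by 1.53 ± 0.35 (adjusted p 0.0075), Hmgcs1, the HMG-CoA synthase, by 1.15 ± 0.29 (adjusted p 0.013), Dhcr7 by 1.88 ± 0.51 (adjusted p 0.019) and Pmvk by 1.24 ± 0.36 (adjusted p 0.025). Fdft1 fell by 1.53 ± 0.46 (adjusted p 0.027). With NaKtide on the Western diet 3 of the 28 fell and 0 rose, where 13.2% of all genes were called, 6.23% higher and 6.95% lower. The median was -0.38, against 0.03 for all genes. The 3 were Insig1 (-2.05 ± 0.37, adjusted p 0.0021), Dhcr7 (-1.70 ± 0.51, adjusted p 0.037) and Sc5d (-1.15 ± 0.35, adjusted p 0.038). Only Insig1 was kept in every fit without 1 library, and the count ranged from 1, without any of Western diet 1, 3, 4 or 5 or Western diet + NaKtide 1 or 2, to 5, without Western diet 2 or Western diet + NaKtide 5.

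On the control diet NaKtide went with 3 higher genes and 1 lower, where 7.15% of all genes were called, 5.26% higher and 1.90% lower. The median was -0.15, against -0.23 for all genes. Insig1 rose by 2.07 ± 0.37 (adjusted p 0.0021), Mvk by 1.44 ± 0.25 (adjusted p 0.0019) and Hmgcs1 by 1.20 ± 0.29 (adjusted p 0.018), and Fdft1 fell by 1.64 ± 0.46 (adjusted p 0.035). Without control diet 3 or control diet + NaKtide 2 the count was 2. Between diets with NaKtide 2 of the 28 fell, Insig1 by 1.52 ± 0.36 (adjusted p 0.020) and Mvk by 0.96 ± 0.25 (adjusted p 0.031), where 4.82% of all genes were called, 1.32% higher and 3.49% lower. The median was -0.01, against 0.04 for all genes. The count of 2 was 0 without control diet + NaKtide 2 or Western diet + NaKtide 2, and 1 without control diet + NaKtide 4 or 5 or Western diet + NaKtide 1. The interaction was called for 8 of the 28, 6 lower and 2 higher, where 32.2% of all genes were called, 18.8% higher and 13.4% lower. The median was -0.14, against 0.30 for all genes. Insig1 had -4.11 ± 0.52 (adjusted p 2.9e-05), Mvk -2.15 ± 0.35 (adjusted p 0.00032), Sc5d -2.26 ± 0.50 (adjusted p 0.0032), Dhcr7 -3.19 ± 0.72 (adjusted p 0.0039), Fdft1 2.80 ± 0.64 (adjusted p 0.0044) and Hmgcs1 -1.77 ± 0.41 (adjusted p 0.0048). The values behind Fdft1 need care: on the opposite strand it shares 774 of its 4227 exon bases with Ctsb, which had 633116 counts over all libraries against 43549 for Fdft1, and whether strand was used in counting is not given in the sources used here.

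Some of the highest values in visceral groups stood in libraries with reproductive tract transcripts. Sqle had 5.01, 9.44, 14.6, 14.1 and 107 CPM in Western diet + NaKtide fat, 35.7, 24.4, 37.7, 37.0 and 32.6 CPM in Western diet fat, 27.4, 16.5, 12.5, 30.5 and 29.4 CPM in control diet + NaKtide fat, and 11.0, 7.62, 41.2, 109 and 76.4 CPM in control diet fat. The values of 107 and 109 CPM stood in the libraries with the 2 largest epididymis sums, 34395 CPM in Western diet + NaKtide replicate 5 and 29305 CPM in control diet replicate 4. Those libraries also had the highest level of 14 and 16 of the 20 enzymes in their groups. Steroid-making cells, which take up and make cholesterol, had 5 markers that summed to at most 433 CPM, in control diet replicate 5. Macrophage markers, all 10 detected in each group, summed to 536 to 1165 CPM in Western diet + NaKtide fat, 1381 to 3673 in Western diet fat, 1744 to 2699 in control diet + NaKtide fat and 255 to 886 in control diet fat, and were high in the same 2 groups as Insig1. All 7 fibroblast progenitor markers were detected, summing to 544 to 2832 CPM in Western diet + NaKtide fat, 1807 to 3836 in Western diet fat, 1553 to 3441 in control diet + NaKtide fat and 185 to 987 in control diet fat. The mitochondrial share was 2.64% to 6.24% in Western diet + NaKtide fat and 1.73% to 2.63% in Western diet fat, without overlap. The part of these measures in the results was not tested.

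Without the 8 tract-rich libraries, 12 remained: 2 of Western diet + NaKtide, 4 of Western diet, 4 of control diet + NaKtide and 2 of control diet. Between diets without NaKtide 16 of the 28 then rose and 0 fell, where 17.7% of all genes were called, 9.58% higher and 8.14% lower, and the median was 1.05. Insig1 rose by 3.10 ± 0.20 (adjusted p 2.5e-05), Nsdhl by 2.54 ± 0.35 (adjusted p 0.00084), Lss by 2.58 ± 0.38 (adjusted p 0.0013) and Srebf2 by 1.03 ± 0.21 (adjusted p 0.0061). Neither Pmvk (1.29 ± 0.42, adjusted p 0.052) nor Fdft1 was called any longer. On the Western diet 12 fell and 1 rose with NaKtide, where 21.6% of all genes were called, 9.54% higher and 12.0% lower, and the median was -0.70. Insig1 fell by 2.07 ± 0.19 (adjusted p 5.0e-05), Nsdhl by 2.07 ± 0.34 (adjusted p 0.0017), Lss by 2.28 ± 0.38 (adjusted p 0.0017) and Srebf2 by 0.72 ± 0.20 (adjusted p 0.026), and the gene that rose was Fdft1, by 0.74 ± 0.22 (adjusted p 0.032).

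In the same 12 libraries NaKtide on the control diet went with 9 higher genes and 2 lower, where 13.9% of all genes were called, 7.77% higher and 6.11% lower. Insig1 rose by 2.68 ± 0.20 and Dhcr7 by 2.08 ± 0.38, and Fdft1 and Mylip fell by 0.78 ± 0.22 and 1.45 ± 0.34. Between diets with NaKtide 7 fell and 1 rose, where 14.8% were called, 6.04% higher and 8.71% lower. The interaction was called for 17, of which 16 were lower, where 28.7% of all genes were called, with Insig1 at -4.75 ± 0.27 (adjusted p 8.8e-07) and Dhcr7 at -4.38 ± 0.54 (adjusted p 0.00013). With 2 libraries in each of 2 groups, these fits assume that such a group varies like the others.

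**Figure D5:**
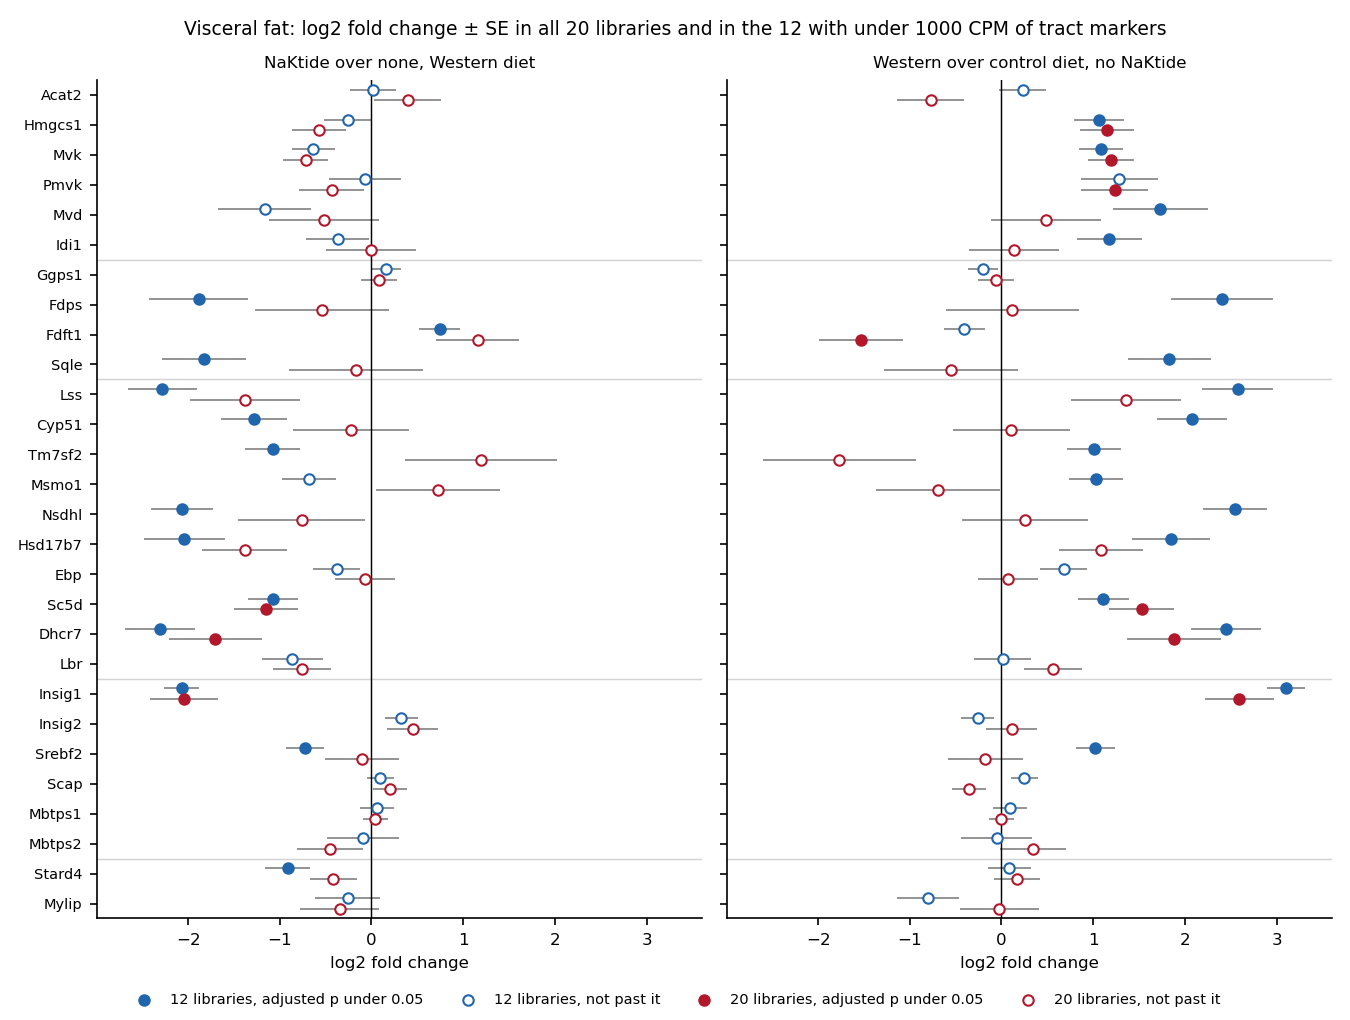
Log2 fold changes with SE (horizontal axis) of the 28 genes (vertical axis, by role) in visceral fat, for NaKtide over none on the Western diet (left) and Western diet over control diet without NaKtide (right), in the 12 libraries with under 1000 CPM of tract markers (blue, upper point of each pair) and in all 20 (red, lower point); filled points have an adjusted p under 0.05. In the 12 libraries 13 genes are filled on the left and 16 on the right, against 3 and 7 in all 20, and Insig1 is filled in both.

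Genes of the other sterol list that were called in visceral fat included Nceh1 and Lipa, hydrolases of cholesteryl esters. Nceh1 rose by 2.89 ± 0.45 and Lipa by 2.28 ± 0.47 in Western diet relative to control diet fat, where 5 of 24 rose, 10.5% of all genes rose and 24.9% were called in either direction. On the Western diet 4 of 24 fell with NaKtide, where 6.95% of all genes fell and 13.2% were called in either direction. Among the 4, Nceh1 fell by 2.43 ± 0.44 and Lipa by 1.74 ± 0.46. On the control diet both rose with NaKtide, by 2.98 ± 0.45 and 2.28 ± 0.47. Both fell in Western diet relative to control diet fat with NaKtide, by 2.51 ± 0.44 and 1.74 ± 0.46. Without the tract-rich libraries Lipa was not called with NaKtide on the Western diet (-1.41) or between diets with NaKtide (-1.44). Limma with quality weights called 11 of the 24 and 37.8% of all genes between diets without NaKtide, and 14 of the 24 and 42.9% of all genes with NaKtide on the Western diet. The macrophage and fibroblast progenitor sums above were high in the same 2 groups.

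The diet effect without NaKtide was then compared between depots, in a fit of all 40 fat libraries. edgeR called 0 of the 28 genes, where 2.23% of all 17788 genes tested were called, 1.56% higher and 0.669% lower, and 10 of the 28 had an unadjusted p under 0.05, where 20.7% of all genes did. DESeq2 called 4, where it called 7.74% of all genes. The median of the effect in visceral minus subcutaneous fat was -0.57, against -0.19 for all genes, and the values ran from -2.95 for Sqle to 0.73. Insig1 differed by 0.19 ± 0.60 between depots. The called count was 4 without visceral control diet 1 or 2, and 1 without subcutaneous control diet 3 or visceral Western diet 2. Without the tract-rich visceral libraries edgeR called 0 of the 28 and 0.00576% of all genes.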

How the data were processed

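RNA was sequenced from TruSeq stranded mRNA libraries with paired reads of 50 bases, per the labels' protocols. Trimmomatic 0.38, HISAT2 2.1.0 and DESeq2 1.20.0 appear in the submitters' processing notes, with genome build GRCm38. The counting program, its annotation and its use of strand are in none of the sources used here. Raw counts per gene were deposited by the authors as whole numbers, per the file headers, for 54232 gene IDs, of which 54079 matched a symbol. The authors also deposited FPKM values, per the file headers, which were used only to describe levels between genes and across tissues. A table of normalized counts was not used here. Depth was 3177783 to 9784337 counts per library (median 6407495), no pair of libraries was identical, and fold changes of genes with few counts are the least precise.

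Each tissue was fitted with its 4 groups of 5 libraries in edgeR 4.0.16 (R 4.3.3), with TMM scaling, filterByExpr, a quasi-likelihood test and Benjamini-Hochberg adjustment over all genes tested. The depots were compared in a fit of all fat libraries. The same code was tested on simulated counts with known changes, and the outcome is not given here. No simulated library differed from others in muscle or tract transcripts, so the test does not cover such libraries. Up to 6 called genes with the smallest p per comparison were named with full statistics, the genes of SREBP2 control, Stard4 and Mylip whatever their p, and at most 4 called genes of the other sterol list; exceptions are marked. The members and gene lists were chosen with earlier results of these data known. Alternatives were DESeq2 1.42.0, limma 3.58.1 with quality weights, RLE scaling, fits that keep genes of low count, the replicate number as a block, only the groups compared, the mitochondrial share as a covariate, and fits without single libraries, sets of libraries or muscle-rich genes. Promoters are from RefSeq (GRCm38.p6), and none was used for Sqle, Fdft1, Fdps and Stard4.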

Additional observations from a re-analysis of the deposited data

Results flagged for a closer look

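In 44 of 336 groups of 5 values (13.1%) the highest or the lowest library lay apart from the other 4 by Dixon's ratio. For independent, normally distributed values chance gives about 1 in 20. These are untransformed CPM of genes measured in the same libraries, so the 13.1% cannot be set against that rate. Of the 44, 20 were in visceral fat, and 2 libraries held most of these. Western diet + NaKtide replicate 5 was highest by such a gap for the enzymes Fdps (123 CPM), Fdft1 (364), Sqle (107), Lss (129), Cyp51 (221), Tm7sf2 (109), Msmo1 (207), Nsdhl (211) and Hsd17b7 (16.8), and for Srebf2 (178). Control diet replicate 4 was highest for Mvd (78.5 CPM), Idi1 (123), Lss (129), Cyp51 (226), Msmo1 (189), Dhcr7 (56.4) and Insig1 (194). These are the visceral libraries with the largest sums of epididymis markers. Control diet + NaKtide replicate 1, high in Tm7sf2 (21.7 CPM), and Western diet replicate 1, low in Dhcr7 (54.5 CPM), are also among the 8 with over 1000 CPM of tract markers. Western diet replicate 2, high in Pmvk (194 CPM), is not.

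In liver, Western diet + NaKtide replicate 1 was high in Lss (38.8 CPM), Nsdhl (41.9) and Sc5d (465), and replicate 5 of that group was high in Ggps1 (10.6) and low in Scap (41.7). Western diet replicate 5 was high in Fdps (205 CPM) and Ebp (332), and Western diet replicate 4 in Sqle (60.2). Control diet + NaKtide replicate 5 was low in Dhcr7 (126 CPM). Control diet replicate 3 was high in Ggps1 (10.1 CPM) and Mylip (3.16), and control diet replicate 5 was low in Insig2 (71.9).

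In subcutaneous fat, Western diet + NaKtide replicate 3 was high in Fdft1 (84.2 CPM) and Hsd17b7 (8.78). Western diet replicate 4 was high in Acat2 (277 CPM) and Dhcr7 (78.5), and Western diet replicate 5 in Mbtps2 (5.44). Control diet + NaKtide replicate 3 was high in Cyp51 (55.3 CPM) and Dhcr7 (39.8), and replicate 2 of that group was low in Mbtps1 (56.5). Among control diet libraries replicate 4 was high in Hmgcs1 (160 CPM) and Hsd17b7 (6.43), replicate 2 in Cyp51 (58.9) and replicate 5 in Stard4 (12.5).

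By edgeR's interaction term, the effect of NaKtide differed between the diets for 19 genes in liver and 8 in visceral fat. Over all genes tested, 5.00% were called for this term in liver and 32.2% in visceral fat. The visceral count is thus not shown to be particular to the pathway. In liver the differences on the log2 scale, Western diet effect minus control diet effect, were -2.08 for Hmgcs1, -2.18 for Pmvk, -2.98 for Mvd and -2.72 for Idi1 at the mevalonate stage, and -2.12 for Fdps, -1.32 for Fdft1 and -4.64 for Sqle at the squalene stage. At the sterol stage they were -1.96 for Lss, -2.33 for Cyp51, -1.62 for Tm7sf2, -1.92 for Msmo1, -2.66 for Nsdhl, -2.19 for Hsd17b7, -1.66 for Sc5d and -1.58 for Dhcr7. For Insig1, Insig2, Scap and Stard4 they were -1.65, -1.02, -0.78 and -1.02. In visceral fat the differences were below 0 for Insig1 (-4.11), Dhcr7 (-3.19), Sc5d (-2.26), Hsd17b7 (-2.16), Mvk (-2.15) and Hmgcs1 (-1.77), and above 0 for Fdft1 (2.80) and Acat2 (1.44).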

How the results depend on the processing

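No called gene of the 28 changed direction under any alternative run. Over the 16 comparisons, calls kept and lost were 111 and 0 with DESeq2, 107 and 4 with RLE scaling, 108 and 3 with limma's quality weights, 98 and 13 without the low-count filter, and 1191 and 189 over all fits that left out 1 library. With only the groups compared they were 70 and 14. In liver they were 53 and 19 with the mitochondrial share as a covariate, and 63 and 9 without the muscle-containing livers. In fat they were 21 and 3 without the tract-rich visceral libraries. Among genes of the other sterol list, calls kept and lost were 36 and 0 with DESeq2 and 12 and 10 without the tract-rich visceral libraries.

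In liver the count of called genes between diets without NaKtide, 7 of 28, was 3 without the low-count filter, 4 with the replicate block, 2 with only the groups compared, and 2 to 6 without 1 library. With NaKtide on the Western diet, 12 became 4 with the mitochondrial share as a covariate and 8 to 15 without 1 library. With NaKtide on the control diet, 13 became 8 without the 2 muscle-containing livers and 7 to 15 without 1 library. Without 1 library the diets with NaKtide gave 21 to 22 and the interaction 14 to 22. Without library 1 of both Western diet groups, NaKtide on the Western diet gave 17, where 27.4% of all genes were called. Western diet replicate 1 had the lowest enzyme sum of its group (1470 CPM), and Western diet + NaKtide replicate 1 the highest of its group (1464 CPM). Leaving out both widens the gap between these groups, so the higher count is no independent check of the result. Insig1 was among the 17 (-0.68, adjusted p 0.015 in edgeR) and was also called with limma's quality weights (-0.60, adjusted p 0.0082).

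In subcutaneous fat 0 genes called with NaKtide on the Western diet became 7 with DESeq2, 16 with limma, 5 with only the groups compared, and 0 in each fit without 1 library. Between diets with NaKtide 0 became 1 with DESeq2, 1 with limma and 0 to 2 without 1 library (2 without control diet + NaKtide replicate 3). The interaction went to 2 with DESeq2 and 0 to 1 without 1 library (1 without control diet + NaKtide replicate 2). The diets without NaKtide gave 11 to 15.

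In visceral fat, without the low-count filter, the counts were 1 with NaKtide on the Western diet, 2 with NaKtide on the control diet and 0 between diets with NaKtide. With DESeq2 the first 2 of these were 6 and 7. With limma's quality weights they were 16 between diets without NaKtide, 17 and 14 with NaKtide on the Western and the control diet, 11 between diets with NaKtide and 18 for the interaction. Without the tract-rich libraries the counts were 16, 13, 11, 8 and 17 in the same order. The shares of all genes called there were 17.7%, 21.6%, 13.9%, 14.8% and 28.7%. Limma also called a larger share of all genes than edgeR did in the first 2 of these comparisons, as given above. Its higher counts there are thus not limited to the pathway. With only the groups compared NaKtide on the control diet gave 2. Without 1 library the ranges were 5 to 8, 1 to 5, 2 to 6, 0 to 2 and 7 to 9. Between depots 0 became 4 with DESeq2, 1 with only the groups compared and 0 to 4 without 1 library. The cause of these shifts was not tested. Most counts of this section, in every tissue, come without the share of all genes called in the same fit. The same holds for most counts given further above for fits without single libraries, without sets of libraries or with a covariate. Whether those shifts are particular to the pathway is thus not shown.

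Libraries with the same replicate number showed no general pairing. Their deviations correlated over 0.1 in 5 of 30 pairs in liver, 9 of 30 in subcutaneous fat, 11 of 30 in visceral fat and 2 of 20 between depots. The highest correlation was 0.78, in visceral fat. Libraries of different number were not compared, nor was liver with fat, so whether equal numbers mark the same mouse is not settled. With the replicate block 94 calls were kept and 17 lost. Depth limits genes with few counts, such as Sqle in liver and Mbtps2.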
